A study of Mus musculus with 8 samples.

Results

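The phagocyte NADPH oxidase is the enzyme with which neutrophils and macrophages make superoxide against microbes. Its membrane part, flavocytochrome b558, is a pair of gp91phox (encoded by Cybb), which carries the electrons, and p22phox (Cyba), which anchors and stabilises gp91phox. In resting cells the organiser p47phox (Ncf1) and the phosphoinositide-binding p40phox (Ncf4) stay in the cytosol, and on stimulation they move to the membrane together with the GTPase Rac2. Inherited loss of CYBB, CYBA, NCF1 or NCF4 causes chronic granulomatous disease in humans, and the genes are switched on as myeloid precursors mature.

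The account covers 5 genes of this enzyme, Cybb, Cyba, Ncf1, Ncf4 and Rac2, taken as every probe set whose platform annotation gives 1 gene symbol equal to one of them. That gave 10 of the 45037 probe sets of the array. They were followed in 32Dcl3, an established mouse line of myeloid progenitors that needs interleukin-3 (IL-3) to grow and that takes the neutrophil path when given granulocyte colony-stimulating factor (G-CSF). One culture carried the retroviral vector pMYs-FLAG-ASXL1-MT-IG (ASXL1-MT, a mutant form of the chromatin regulator ASXL1 with a FLAG tag) and the other the empty vector pMYs-IG (mock). Growing cells in IL-3 and cells given G-CSF for 2, 6 or 24 h were measured from each culture, with 1 Affymetrix array for each condition and 8 in total. The labels do not say whether IL-3 was withdrawn, whether the time points were separate cultures, or from which species the ASXL1 cDNA came. With 1 culture per vector, the vector and the culture cannot be told apart, and the small number of arrays limits the precision.

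Values are log2 expression of a probe set minus its own median over the 8 arrays, so they can be compared between arrays but not between genes. The log base of 2 was assumed. Differences are given ± the standard error (SE) of a single limma model with terms for time point and vector. Its p-values were adjusted by the Benjamini-Hochberg method, with a threshold of 0.05. The adjustment ran over the 29052 probe sets that passed a filter on estimated level. Differences in G-CSF compare 2 arrays with 2, and differences between the vectors compare 4 with 4. The 2 cultures thus stand in for replicates of a time point, and the 4 time points for replicates of a vector. The p-values measure only the spread between these arrays. The level of a probe set before centring was estimated from its rounding step, which tells little beyond the classes used below. Dim probe sets varied more: the median SD over all arrays was 0.256 at a level of 8 or more, 0.71 at 4 to 8 and 1.35 under 4.

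Of the 10 probe sets, 6 lay at a level of 8 or more: the single ones of Cyba (1454268_a_at) and Ncf4 (1418465_at), all 3 of Ncf1 (1425609_at, 1451767_at and 1456772_at) and 1417620_at of Rac2. All 3 of Cybb (1422978_at, 1436778_at and 1436779_at) and 1440208_at of Rac2 lay between 4 and 8. The filter on dim probe sets left out 1436779_at, so 9 were tested. Some share their source: 1425609_at and 1451767_at of Ncf1 were designed on the same expressed sequence, as were 1436778_at and 1436779_at of Cybb.

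RefSeq's table for GRCm38.p6 places Ncf1 at chr5:134220053-134229628, Cyba at chr8:122424771-122432940, Ncf4 at chr15:78244164-78262582, Rac2 at chr15:78559169-78572783 and Cybb at chrX:9435252-9487766. Promoters of 3 of the 5 genes matched the RefSeq promoter table of that build. All 3, those of Cyba, Ncf1 and Cybb, are shown, since Ncf4 and Rac2 had no entry there. Each line gives the 250 bases before the start on the minus strand, 5′ to 3′, at chr8:122432941-122433190 for Cyba, chr5:134229626-134229875 for Ncf1 and chrX:9469325-9469574 for Cybb. The start is that of the promoter table: the span given above for Ncf1 overlaps its window by 3 bases, and that for Cybb reaches past its window. Capitals mark matches, on either strand, to the letters searched: GAGGAA for PU.1, CCAAT for the CCAAT box, GGGCGG for the GC box, TATAAA for the TATA box, TTCNNNGAA for STAT factors and TTGCNNAA for C/EBP factors.
Cyba: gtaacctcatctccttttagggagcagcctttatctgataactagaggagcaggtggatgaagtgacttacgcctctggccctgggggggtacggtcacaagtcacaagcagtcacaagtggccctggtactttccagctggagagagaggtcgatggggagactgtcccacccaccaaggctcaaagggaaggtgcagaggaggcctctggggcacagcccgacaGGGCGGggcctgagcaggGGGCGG
Ncf1: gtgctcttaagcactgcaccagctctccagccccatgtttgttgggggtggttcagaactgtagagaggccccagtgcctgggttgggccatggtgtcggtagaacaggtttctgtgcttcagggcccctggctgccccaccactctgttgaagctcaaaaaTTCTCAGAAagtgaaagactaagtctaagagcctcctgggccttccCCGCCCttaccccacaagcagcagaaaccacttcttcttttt
Cybb: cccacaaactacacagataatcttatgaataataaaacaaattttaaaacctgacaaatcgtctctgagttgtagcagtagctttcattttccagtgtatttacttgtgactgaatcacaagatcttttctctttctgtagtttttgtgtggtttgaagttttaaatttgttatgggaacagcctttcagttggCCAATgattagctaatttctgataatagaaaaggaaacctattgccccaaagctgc

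The Cyba window is rich in G and C (60%) and holds 2 GC boxes, the letters that Sp1-like factors read, starting 24 and 6 bases before the start. The Ncf1 window (54.4% G and C) holds a GC box on the opposite strand 42 bases before the start and a STAT match, TTCTCAGAA, 88 bases before it. The Cybb window is rich in A and T, with 34% G and C, and holds a CCAAT box 56 bases before the start. The ets factor PU.1, encoded by Spi1, is known to drive CYBB in human myeloid cells. Its letters were found once, on the opposite strand, just after the Cybb start at chrX:9469302-9469323, as gttttcatTTCCTCatcagaag, with the match in capitals. No TATA box or C/EBP match was found in these 3 windows, searched from 250 bases before to 50 after the start. Windows of that length holding each motif made up 28.3% of the 32851 in the table for PU.1, 37.4% for the CCAAT box, 35.7% for the GC box, 13.6% for the TATA box, 8.30% for STAT and 10.8% for C/EBP. These are matches of letters only.

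After 24 h in G-CSF, transcripts of 4 of the 5 subunit genes were higher than in IL-3. This bears on how these transcripts change with the differentiating cytokine. No IL-3 array was taken at the hours of the G-CSF arrays. The effects of G-CSF, of any loss of IL-3 and of time in culture therefore cannot be told apart. Ncf4 had the largest difference, 2.46 on the log2 scale or 5.49-fold, followed by the 3 Ncf1 probe sets at 2.83-, 2.44- and 2.40-fold, the 2 Rac2 probe sets at 1.97- and 1.61-fold, and Cyba at 1.92-fold. Cybb did not pass the test. In all, 7 of the 9 tested probe sets rose and none fell, while of all tested probe sets 20.8% were called, 12.2% up and 8.59% down. Of the 7, 1440208_at of Rac2 would not have passed the filter on dim probe sets without its 24 h arrays. Its rise is therefore not independent of that filter. Among probe sets at a level of 8 or more, where 6 of the 7 lie, 15.9% rose.

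**Figure D1:**
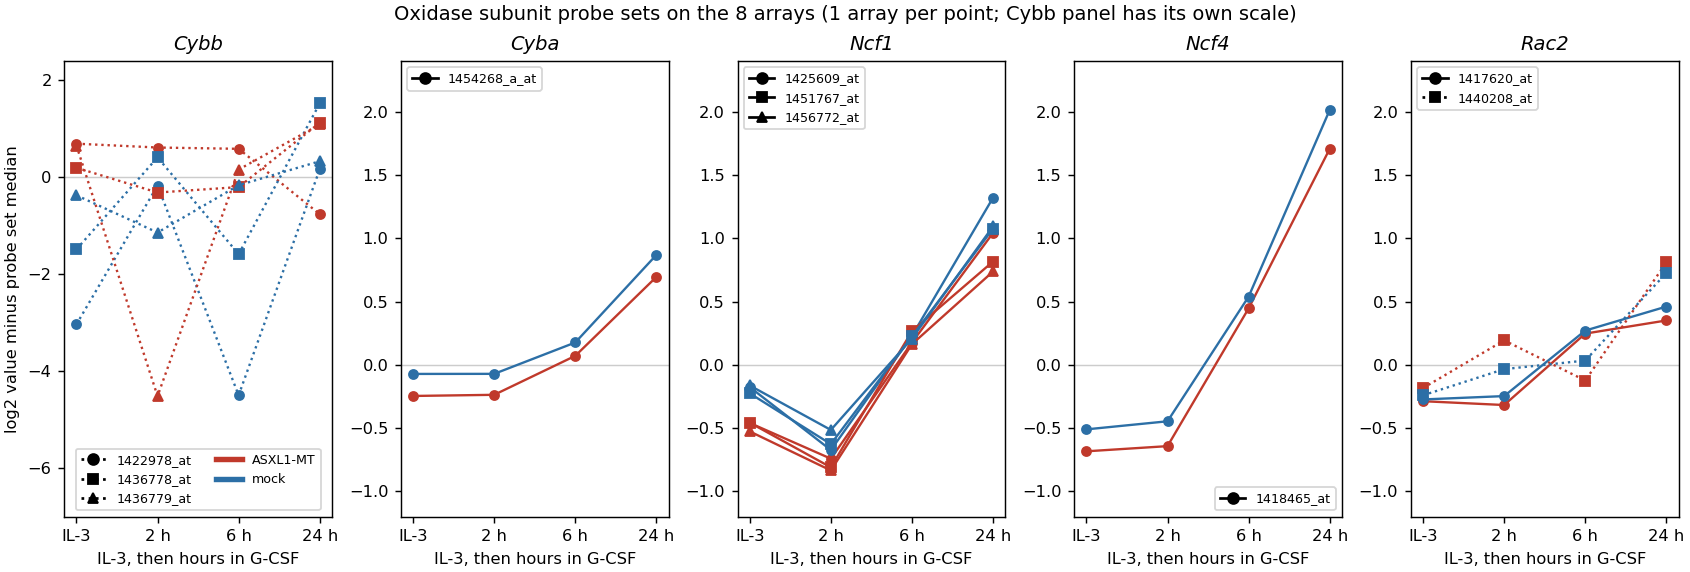
Values of the 10 oxidase subunit probe sets (log2 value minus the probe set's median over the 8 arrays) in IL-3 and at 2, 6 and 24 h of G-CSF, in ASXL1-MT cells (red) and mock cells (blue), 1 array per point. Solid lines are probe sets at an estimated level of 8 or more and dotted lines those at 4 to 8; the Cyba, Ncf1, Ncf4 and Rac2 lines are highest at 24 h in both cultures, while the Cybb lines cross.

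In the membrane part of the enzyme, Cyba read -0.25 in ASXL1-MT cells in IL-3, -0.24 at 2 h, 0.07 at 6 h and 0.69 at 24 h. In mock cells it read -0.07, -0.07, 0.18 and 0.87 at the same points. Both 24 h arrays stood above the other 6, and both IL-3 arrays lay level with their 2 h arrays. The rise at 24 h was 0.94 ± 0.09 (limma adjusted p = 0.0120), and it was the same size in ASXL1-MT and mock cells, 0.94 in each. At 6 h the difference from IL-3 was 0.28 ± 0.09 (adjusted p = 0.125), which did not pass.

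Its partner Cybb was measured poorly. The first probe set, 1422978_at, read 0.70, 0.62, 0.59 and -0.76 in ASXL1-MT cells in IL-3 and at 2, 6 and 24 h, against -3.03, -0.17, -4.49 and 0.17 in mock cells. The cultures differed from IL-3 in opposite directions at 2 and 24 h, and the difference at 24 h over both was 0.87 ± 1.62 (adjusted p = 0.745). Another, 1436778_at, read 0.20, -0.31, -0.20 and 1.13 in ASXL1-MT cells, against -1.48, 0.41, -1.58 and 1.53 in mock cells. Here both 24 h arrays stood above the other 6, and the difference at 24 h of 1.97 ± 0.73 did not pass (adjusted p = 0.138). The last, 1436779_at, which was too dim to test, read 0.66, -4.51, 0.16 and 1.09 in ASXL1-MT cells, against -0.37, -1.14, -0.16 and 0.33 in mock cells. The SD over the 8 arrays was 1.93, 1.11 and 1.76 for the 3 Cybb probe sets. That spread limits what can be said of this gene: a difference of the size seen for Ncf4 was not detectable with 1422978_at.

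Cybb and Cyba proteins depend on each other for stability, and Cybc1 encodes a chaperone that gp91phox needs to form the heterodimer. Cybc1, at a level of 8 or more, read -0.36, -0.28, 0.28 and 0.86 in ASXL1-MT cells in IL-3 and at 2, 6 and 24 h, against -0.32, -0.67, 0.38 and 0.91 in mock cells. It rose by 1.23 ± 0.16 at 24 h (adjusted p = 0.0176), and both 24 h arrays stood above the rest.

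Among the cytosolic subunits, Ncf4 read -0.68, -0.64, 0.45 and 1.71 in ASXL1-MT cells in IL-3 and at 2, 6 and 24 h, against -0.51, -0.45, 0.54 and 2.01 in mock cells. Its time points fell into 3 steps that did not overlap, with IL-3 and 2 h lowest, 6 h between and 24 h highest. It rose by 1.09 ± 0.10 at 6 h (adjusted p = 0.0207) and by 2.46 ± 0.10 at 24 h (adjusted p = 0.00836). From 6 to 24 h it rose by a further 1.37 ± 0.10 (adjusted p = 0.0446), the only one of the 9 probe sets to pass in that comparison, where 0.492% of all tested probe sets rose. At 24 h, 1.48% of tested probe sets had a larger difference from IL-3 than Ncf4.

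Ncf1, the organiser whose phosphorylation opens it for assembly, followed another course at 2 h. Probe set 1425609_at read -0.46, -0.74, 0.18 and 1.04 in ASXL1-MT cells, against -0.18, -0.67, 0.23 and 1.32 in mock cells. Probe set 1451767_at read -0.46, -0.81, 0.27 and 0.82 in ASXL1-MT cells, against -0.23, -0.63, 0.23 and 1.08 in mock cells. Probe set 1456772_at read -0.53, -0.83, 0.16 and 0.74 in ASXL1-MT cells, against -0.16, -0.51, 0.21 and 1.09 in mock cells. In each culture all 3 were lowest at 2 h and highest at 24 h. The differences from IL-3 at 2 h, -0.39 ± 0.12, -0.38 ± 0.12 and -0.33 ± 0.13, did not pass (adjusted p = 0.561, 0.572 and 0.623). No probe set of the array passed at 2 h, so 0% was called there; 2375 of 29052 had an unadjusted limma p under 0.05, and other settings called between 0 and 51.

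At 6 h the Ncf1 differences from IL-3 were 0.52 ± 0.12, 0.59 ± 0.12 and 0.53 ± 0.13, and they did not pass (adjusted p = 0.0636, 0.0542 and 0.0713). At 24 h all 3 passed, at 1.50 ± 0.12, 1.29 ± 0.12 and 1.26 ± 0.13 (adjusted p = 0.0106, 0.0118 and 0.0124). The agreement of 1456772_at with the other 2 comes from a separate expressed sequence.

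Rac2, the Rac GTPase of blood-forming cells, rose early and then little more by its brighter probe set. Probe set 1417620_at read -0.29, -0.32, 0.25 and 0.35 in ASXL1-MT cells in IL-3 and at 2, 6 and 24 h, against -0.27, -0.25, 0.27 and 0.46 in mock cells. The 6 and 24 h arrays all stood above the IL-3 and 2 h arrays. It rose by 0.54 ± 0.09 at 6 h (adjusted p = 0.0405) and by 0.69 ± 0.09 at 24 h (adjusted p = 0.0181), and its difference between 24 and 6 h was 0.15 ± 0.09 (adjusted p = 0.406). The dimmer 1440208_at read -0.18, 0.19, -0.12 and 0.81 in ASXL1-MT cells, against -0.24, -0.03, 0.03 and 0.73 in mock cells. It stood above the rest only on the 24 h arrays, where it rose by 0.98 ± 0.13 (adjusted p = 0.0176), while its difference at 6 h was 0.17 ± 0.13 (adjusted p = 0.447). The 2 Rac2 probe sets therefore disagree on the course up to 6 h. With a variance trend on the level, 1440208_at lost its call at 24 h (limma adjusted p = 0.0759).

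At 6 h, then, 2 of the 9 tested probe sets had risen, those of Ncf4 and 1417620_at of Rac2, against 6.28% of all tested probe sets. The rise of Rac2 at 6 h lost its call when the arrays were centred on their medians (0.48) or normalised again (0.46). With any one of the IL-3 or 24 h arrays left out, limma called 0 of all 29052 probe sets at 24 h (smallest adjusted p 0.0780 to 0.0896), so no subunit gene could pass. The differences of the 7 probe sets themselves stayed between 0.65 and 2.53 with any 1 array left out.

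**Figure D2:**
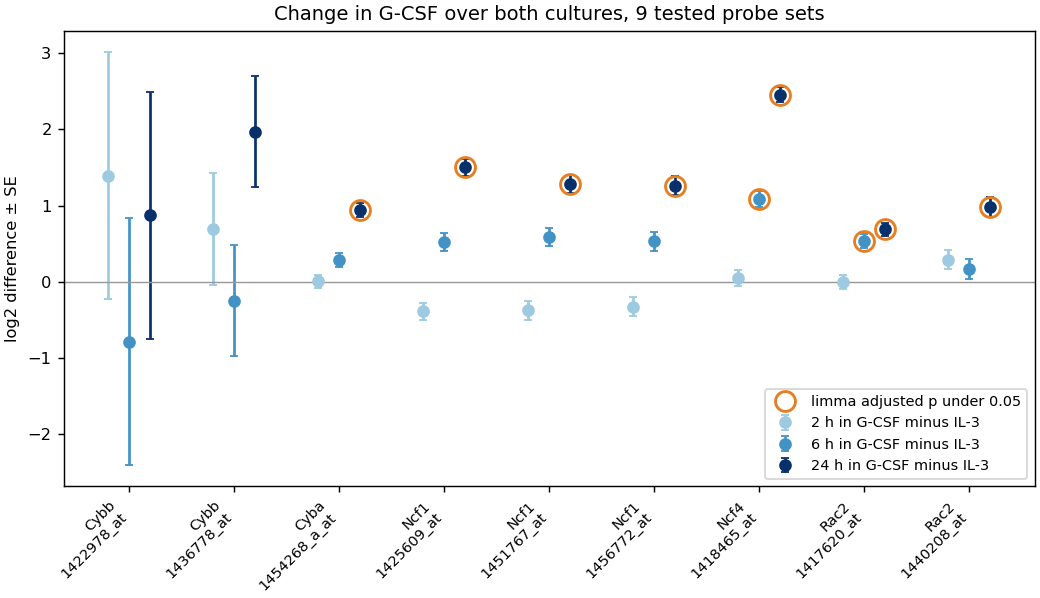
Difference from IL-3 on the log2 scale after 2, 6 and 24 h in G-CSF (light to dark) for the 9 tested oxidase probe sets, as the limma estimate over both cultures with its SE. Orange rings mark an adjusted p under 0.05: 7 probe sets at 24 h, 2 at 6 h and none at 2 h; the bars of the 2 Cybb probe sets are several times longer than those of the others.

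The whole table was shifted upward at the later times, with a median difference of 0.12 over all tested probe sets at 24 h and of 0.09 at 6 h. Relative to the median over all tested probe sets, the 7 rises at 24 h were 0.57 to 2.34. Their calls held when arrays were centred (0.60 to 2.37) or quantile normalised again (0.50 to 2.18). Of the 6036 probe sets called at 24 h, 58.6% rose; the share was 48.8% with centred arrays and 42.3% after quantile normalisation. At 6 h the shares were 55.5%, 46.4% and 40.8%.

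What ASXL1-MT changes could be asked only as a difference between 2 cultures, 1 per vector. That difference passed the test for none of these genes. The 4 time points stood in for replicates of a vector, so the SE holds no spread between cultures of the same vector. Over the 4 time points the difference between ASXL1-MT and mock was -0.15 ± 0.06 for Cyba, -0.17 ± 0.08, -0.16 ± 0.08 and -0.27 ± 0.09 for the 3 Ncf1 probe sets and -0.19 ± 0.07 for Ncf4. It was -0.05 ± 0.06 and 0.05 ± 0.09 for Rac2. No adjusted p was under 0.819 among the 9. Limma called 0% of all tested probe sets here; 1743 had an unadjusted p under 0.05, and every other setting run also called 0.

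At each time point the ASXL1-MT array was below the mock array for Cyba, by 0.17 in IL-3, 0.17 at 2 h, 0.11 at 6 h and 0.17 at 24 h. The same held at all 4 time points for Ncf4, for 1425609_at and 1456772_at of Ncf1 and for 1417620_at of Rac2, and at 3 of 4 for 1451767_at of Ncf1. So 5 of the 9 tested probe sets were lower in ASXL1-MT cells at every time point, against 7.66% of all tested probe sets and 9.6% of those at a level of 8 or more. An exact two-sided sign-flip permutation test over the 4 pairs gave p = 0.125 for each of the 5, which is the smallest p that 4 pairs allow. Any probe set with all 4 differences of the same sign gets this p. The 5 probe sets were picked by that sign, so the test adds nothing to the count. The same arrays enter every one of these probe sets, so they are not independent.

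**Figure D3:**
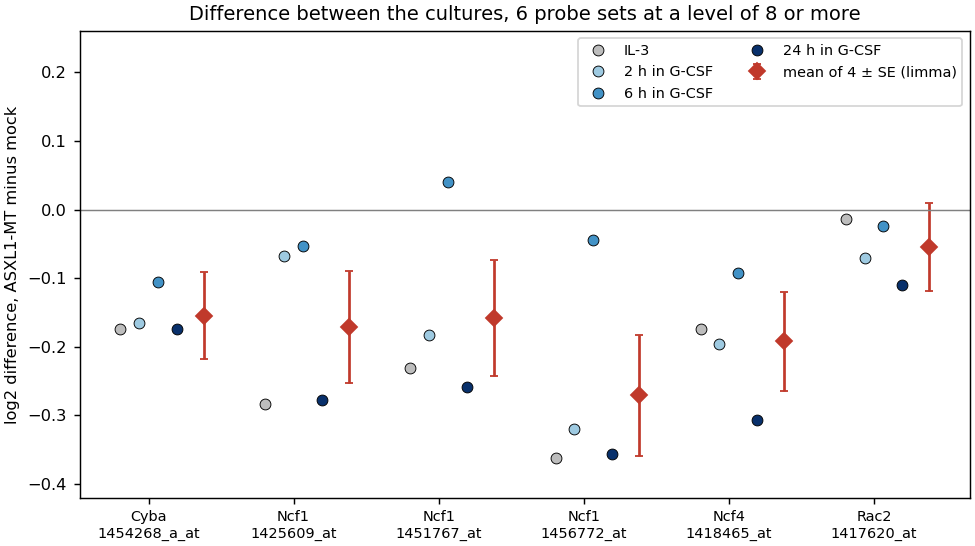
Difference between the ASXL1-MT and mock arrays (log2) in IL-3 and at 2, 6 and 24 h in G-CSF, for the 6 oxidase probe sets at a level of 8 or more, with the limma mean over the 4 time points ± SE (red). All points but 1, 1451767_at of Ncf1 at 6 h, lie below 0, and no mean passed the test.

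For Cybb the difference ran the other way by estimate, 2.17 ± 1.15 for 1422978_at and 0.49 ± 0.52 for 1436778_at, and neither passed (adjusted p = 0.848 and 0.881). By its estimated level, 1422978_at reached the cut of the filter on dim probe sets only on ASXL1-MT arrays. Its difference between the vectors is therefore not independent of that filter. Whether the ASXL1-MT effect at 24 h differed from its mean at the other time points was tested in the same way. The differences were -0.03 ± 0.16 for Cyba, -0.14 ± 0.20, -0.13 ± 0.21 and -0.11 ± 0.22 for Ncf1, -0.15 ± 0.17 for Ncf4, and -0.07 ± 0.16 and 0.04 ± 0.24 for Rac2. None passed (adjusted p of 0.943 or more over the 9), and limma called 0% of all probe sets, with 1729 at an unadjusted p under 0.05 and 0 called by the other settings.

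Labels and targeted gene could be checked only in part. Asxl1 itself has 3 probe sets, which differed between ASXL1-MT and mock cells by -0.34 ± 0.07, -0.04 ± 0.06 and, for the dimmest, 0.68 ± 0.16 (adjusted p = 0.819, 0.913 and 0.819). Which of them the transgene would reach is not given in the sources used here. Array medians ranged from -0.038 to 0.060, highest in the ASXL1-MT array at 24 h and lowest in the mock array in IL-3.

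Related genes were read through the probe set with the highest level per gene. Of 12909 genes tested in this way, 12.9% rose and 10.2% fell at 24 h, with a median difference of 0.09. Among the other oxidase subunits and relatives, 8 of the 13 listed genes were on the array and 6 were tested. Cybc1 rose, none fell, and their median difference was 0.63. Rac1, the widely expressed relative of Rac2, lay at a level of 8 or more and read -0.01, 0.12, 0.16 and -0.10 in ASXL1-MT cells in IL-3 and at 2, 6 and 24 h, against -0.04, 0.01, 0.28 and -0.05 in mock cells. Its 24 h and IL-3 arrays lay close together, with a difference of -0.04 ± 0.10 (adjusted p = 0.801). Rac3 differed by 0.46 ± 0.16 (adjusted p = 0.118). The organiser Noxo1 of the non-phagocytic oxidase differed by -1.28 ± 1.00, and the maturation factors Duoxa1 and Duoxa2 of the dual oxidases by 1.04 ± 0.59 and 0.80 ± 0.96, none of which passed. Nox4 and Duox1 were too dim to test.

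Of the 26 tested genes that act in oxidase activation, 9 rose at 24 h and none fell, with a median of 0.32. The shares over all tested genes were 12.9% up and 10.2% down. Pik3r5, the regulatory subunit of the phosphoinositide 3-kinase that G-protein-coupled receptors engage, read 2.25 in ASXL1-MT cells and 2.50 in mock cells at 24 h, against -0.46 and -0.39 in IL-3. It rose by 2.80 ± 0.14 (adjusted p = 0.00852) and had already risen by 1.04 ± 0.14 at 6 h (adjusted p = 0.0302). Hvcn1, the proton channel that balances the charge the oxidase moves, rose by 1.50 ± 0.14, and Syk, the kinase behind Fc receptors and integrins, by 1.32 ± 0.11 (adjusted p = 0.0121 and 0.0107). At 6 h 3 genes of the list had risen, against 7.28% of all tested genes. With quantile normalisation the count at 24 h was 6 up and 1 down.

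Of 18 tested regulators of oxidase gene transcription, 7 rose and 1 fell at 24 h, with a median of 0.56. The shares over all tested genes were 12.9% up and 10.2% down. At 6 h 5 were higher than in IL-3, against 7.28% of all tested genes. They included Gata1, which rose by 1.14 ± 0.11 at 6 h (limma adjusted p = 0.0208). At 24 h Gata1 differed from IL-3 by only 0.09 ± 0.11 (limma adjusted p = 0.617). Spi1, which encodes PU.1, read 0.58 in ASXL1-MT cells and 0.94 in mock cells at 24 h, against -0.83 and -0.56 in IL-3. It rose by 1.16 ± 0.13 at 6 h and by 1.45 ± 0.13 at 24 h (adjusted p = 0.0227 and 0.0113). Cebpd, a C/EBP factor, rose by 2.40 ± 0.11, and Stat3, the factor downstream of the G-CSF receptor, by 1.99 ± 0.10 at 24 h (adjusted p = 0.00836 and 0.00852). Gata2, a factor of early progenitors, fell by 1.31 at 24 h with an SE of 0.13 (adjusted p = 0.0121), and its difference at 6 h was 0.01 ± 0.13.

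Genes that handle superoxide and peroxide moved both ways: 6 of 23 tested rose and 4 fell at 24 h, with a median of -0.10. The shares over all tested genes were 12.9% up and 10.2% down. The rises included Glrx (glutaredoxin) at 1.21 ± 0.10, Gpx1 (glutathione peroxidase) at 0.94 ± 0.09 and Gclm (a subunit of the enzyme that makes the glutathione precursor) at 0.68 ± 0.11. The falls included 3 mitochondrial proteins, peroxiredoxin Prdx3 at -1.23 ± 0.12, superoxide dismutase Sod2 at -1.08 ± 0.09 and thioredoxin Txn2 at -0.77 ± 0.14. Their adjusted p ran up to 0.0322. Under either other scaling 3 genes of the list rose and 4 fell.

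Of 17 tested genes that supply NADPH, the electron donor of the enzyme, 3 rose and 2 fell at 24 h, with a median of 0.12. Of all tested genes, 12.9% rose and 10.2% fell, with a median of 0.09, so this list lies near all genes. Idh1, which makes NADPH in the cytosol, rose by 0.86 ± 0.13, Pgd of the pentose phosphate pathway by 0.74 ± 0.10 and Rpe of the same pathway by 0.48 ± 0.11 (adjusted p = 0.0223, 0.0189 and 0.0460). The folate enzymes Mthfd1 and Mthfd2 fell, with differences of -1.23 ± 0.09 and -0.84 ± 0.14 (adjusted p = 0.0106 and 0.0259). After quantile normalisation, only Pgd of the 3 kept its rise.

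**Figure D4:**
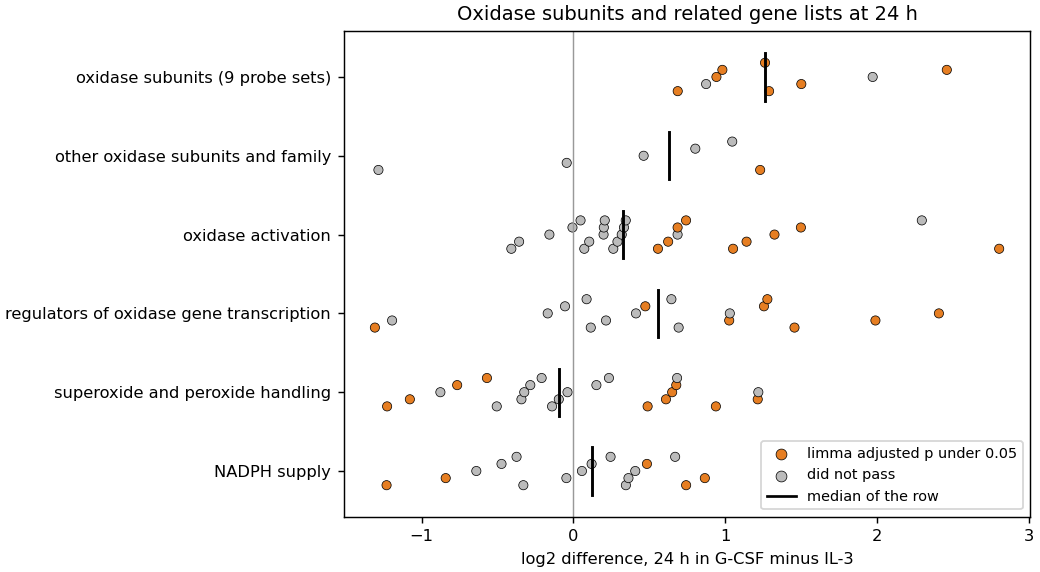
Difference between 24 h in G-CSF and IL-3 (log2) for the 9 tested oxidase probe sets and for each tested gene of 5 related lists, with the median of each row as a black line. Orange points passed limma's adjusted p of 0.05; the oxidase row holds 7 orange points, all above 0.6, while orange points lie on both sides of 0 in the rows for superoxide and peroxide handling and for NADPH supply.

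Markers of maturing myeloid cells moved in the same arrays as the oxidase genes. Over all tested genes, 12.9% rose and 10.2% fell at 24 h. Among the markers, all 7 tested of granulocyte precursors and 7 of 8 of mature neutrophils rose. So did 4 of 5 of eosinophils, 4 of 6 of monocytes and macrophages and 1 of 3 of megakaryocytes. Of the monocyte and macrophage markers that rose, Ccr2 would not have passed the filter on dim probe sets without its 24 h arrays. The rise of Ccr2 is therefore not independent of that filter. Of mast cells and basophils 2 of 5 rose and 1 fell, and of erythroid cells 1 rose and 1 fell of 2 tested. Medians of values were taken over all listed markers on the array, including those too dim to test. The median marker of mature neutrophils read 1.46 in ASXL1-MT cells and 1.58 in mock cells at 24 h, against -0.57 and -0.04 in IL-3. That of monocytes and macrophages read 1.11 in ASXL1-MT cells and 0.99 in mock cells at 24 h, against -0.005 and -0.29 in IL-3. That of eosinophils read 2.18 in ASXL1-MT cells and 1.50 in mock cells at 24 h, against -0.35 and -0.73 in IL-3. No tested marker of B cells, T cells or fibroblasts passed. After quantile normalisation 5 markers of granulocyte precursors, 6 of mature neutrophils, 3 of monocytes and macrophages and 0 of megakaryocytes and erythroid cells rose, and the other counts were as before. Centred values carry no true zero, so no marker can be said to be at 0. In these bulk samples, fewer cells of a type and less RNA per cell cannot be told apart, and the part of any cell type in the oxidase result was not tested.

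The probe sets most like each member were found by Pearson's r over the 8 arrays, which share 2 cultures and 1 time course, so r is a description of shape only. For Ncf4 they were Hp (haptoglobin, a protein of neutrophil granules as well as plasma), Scamp3, Igsf6, Ctsb (cathepsin B) and Cd52, with r of 0.997 to 0.998. For Cyba they were Mgst2, Hfe, Pglyrp1 (a peptidoglycan-recognition protein of neutrophil granules), Syk and Bcan, with r of 0.995 to 0.998. For Ncf1 they were Ceacam1, both probe sets of Cklf, Mtmr3 and Aatk, with r of 0.993 to 0.995. For Rac2 they were Pdlim2, Kat2b, Stk38, Rnf144a and Psap (the precursor of saposins), with r of 0.996 to 0.999. For Cybb, through 1436778_at, they were Atp6v1g1, Znrf1, Tgfb1i1, Rnf14 and Tlcd1, with r of 0.952 to 0.982.

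These neighbours differ in size as well as shape. Hp differed between 24 h and IL-3 by 4.92, against 2.46 for Ncf4, while Scamp3 with nearly the same shape differed by 0.47. Among the subunits, Ncf4 and Cyba had an r of 0.984, Ncf4 and the Ncf1 probe sets 0.966 to 0.975, and the 2 Rac2 probe sets 0.665. The Cybb probe set 1422978_at had r between -0.154 and 0.173 with every probe set of the other 4 genes.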

How the data were processed

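The deposited table holds log2 values, taken as centred by the authors on each probe set's median over the 8 arrays, since every median lay within 5e-07 of 0. Per the labels, MAS 5.0 read the intensities; RMA, with no version, is named by the submitters' processing notes. No source used here gives the log base, the centring or the scaling. Base 10 was set aside because single probe sets span up to 9.06, and a natural log would make log2 differences 1.44 times larger. The labels give 5 µg of RNA in one place and 3 µg in another.

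Symbols came from the platform annotation, updated through RefSeq: 34945 probe sets had 1 symbol, 932 several and 9160 none. Levels before centring were estimated from the rounding step of the numbers. This step separates the level classes but says little of the place within a class. Mpo and Gsr, for example, share a level of 11.58. The 29052 probe sets kept were those whose second-highest array reached the table's median level of 6.22. That cut lies inside the class of 4 to 8, where passing it could depend on high centred values rather than on brightness. limma 3.58.1 in R 4.3.3 fitted time and vector, leaving 3 residual degrees of freedom. Fits were tested on simulated data. All member probe sets were named, with up to 3 rises and 3 falls per list, all tested relatives, and 5 probe sets most alike to each member. Members, lists, levels, filter and tests were chosen with earlier results of these data known. Alternatives were other filters, scalings, summaries per gene, variance models and leaving out each array.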

Additional observations from a re-analysis of the deposited data

Results flagged for a closer look

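Among the tested probe sets, changes from IL-3, or between 6 and 24 h, ran in opposite directions in the 2 cultures in the cases below, each from 1 array per point. For Cybb 1422978_at the change from IL-3 to 24 h was -1.45 in ASXL1-MT cells and 3.20 in mock cells, a difference of -4.65, and the test of the ASXL1-MT effect at 24 h against its mean at the other time points gave an adjusted p of 0.943. Between 6 and 24 h it changed by -1.35 in ASXL1-MT cells and 4.66 in mock cells, a difference of -6.01 that was not tested. At 2 h the same probe set changed by -0.08 in ASXL1-MT cells and 2.86 in mock cells, a difference of -2.94 that was not tested. Cybb 1436778_at changed at 2 h by -0.51 in ASXL1-MT cells and 1.90 in mock cells, a difference of -2.41 that was not tested. Both are dim, with an SD over the 8 arrays of 1.93 and 1.11. Rac2 1417620_at changed at 2 h by -0.03 in ASXL1-MT cells and 0.03 in mock cells, a difference of -0.057 that was not tested.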

How the results depend on the processing

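No paired analysis was possible because, by replicate number, each condition has only 1 array; the cultures were instead matched by time point in the main model and in the exact test. At 24 h against IL-3, 4 subunit genes were called under 7 of 8 other settings, and 2 (Ncf4 and Ncf1) with no filter. The probe sets called over the array were 6036, or 477 with no filter, 2946 and 3492 with 1 value per gene (mean, or highest level), and 0 to 3069 with 1 array left out, when 0 to 4 subunit genes were called. At 6 h, 2 subunit genes and 3287 probe sets became 0 and 0 with no filter, 4 and 5969 with the stricter filter, and 4 and 5426 with a variance trend; 1 subunit gene was called with centred or quantile-normalised arrays, 2041 genes with gene means, and 0 with any array left out. At 2 h, 0 became 51 with the stricter filter, 1 with the highest-level probe set, 9 with the trend and 7 without the vector term. Between 24 and 6 h, 1 subunit gene and 195 probe sets became 0 and 0 with no filter, 0 and 23 after quantile normalisation, and 3 with 4490 (stricter filter), 515 (gene means), 846 (highest level), 3443 (trend) and 1214 (no vector term), and 0 with any array left out. With any 1 array left out, 0 were called between the vectors, over all times or for the effect at 24 h; the effect at 24 h has no value without a 24 h array, and the vector comparisons have none without the vector term. The causes of these changes were not tested.

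Estimates that changed sign were small or those of Cybb. At 2 h, Rac2 by gene mean was 0.14 and Cybb -0.29, and Cyba -0.0048 with centred and -0.010 with quantile-normalised arrays; the effect at 24 h for Cyba was 0.0054 after quantile normalisation. With 1 array left out, the ranges were -0.0080 to 0.018 for Cyba, -0.029 to 0.025 for 1417620_at of Rac2 and -0.11 to 1.50 for 1436778_at of Cybb at 2 h; -2.73 to 1.16 and -1.05 to 0.55 for 1422978_at and 1436778_at of Cybb at 6 h; -1.19 to 2.94 at 24 h and -0.41 to 3.72 between 24 and 6 h for 1422978_at; and, for 1440208_at of Rac2, -0.0057 to 0.12 for ASXL1-MT and -0.059 to 0.13 for its effect at 24 h. Rac2 1417620_at had an adjusted p of 0.0533 at 24 h without either 6 h array. All other member estimates kept their sign under the settings run.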
